A study of Mus musculus with 12 samples.

Results

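Colony-stimulating factors control the production, survival and activation of neutrophils. The data here concern their receptors and ligands, the transcription factors STAT3 and STAT5A that these receptors activate, and a pair of feedback inhibitors, in tumor-associated neutrophils (TANs) and bone marrow (BM) neutrophils of mice. The 10 genes were chosen by their known role, out of 55335 genes counted in each library, with earlier results of these data already known. They are the receptor genes Csf3r, Csf2ra, Csf2rb and Csf2rb2, the ligand genes Csf3 and Csf1, the STAT genes Stat3 and Stat5a, and the inhibitor genes Socs3 and Cish. Each was listed in all 12 libraries and passed the filter on low counts in all 3 comparisons. Against BM neutrophils, Csf3 passed only through its counts in TANs.

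When G-CSF or GM-CSF binds its receptor, JAK kinases attached to that receptor phosphorylate STAT proteins, which then enter the nucleus and activate genes. G-CSF, encoded by Csf3, binds the receptor encoded by Csf3r and is the main factor that drives granulopoiesis and the release of neutrophils from the marrow. GM-CSF binds a receptor made of an alpha chain, encoded by Csf2ra, and the common beta chain, encoded by Csf2rb, while the mouse has a further beta chain, encoded by Csf2rb2, that serves the IL-3 receptor. M-CSF, encoded by Csf1, acts on macrophages and their precursors through a receptor tyrosine kinase encoded by Csf1r. SOCS3 blocks signaling from the G-CSF receptor and from the shared IL-6 receptor chain, and CISH is a feedback inhibitor of STAT5.

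RNA-seq was performed on 3 groups of 4 libraries, all from mice of 10 weeks on the FVB background, kept under SOPF housing. PyMT TANs came from mammary tumors of mice whose mammary gland expresses the polyoma virus middle T oncogene. PyMT-Cxcr2-/- TANs came from tumors of mice that carry the same oncogene and lack the chemokine receptor Cxcr2 in every cell. WT BM neutrophils came from the marrow of mice without the oncogene and with Cxcr2. The labels name no treatment. In both kinds of sample CD11b+ cells were selected and then sorted as CD45+ CD11b+ Ly6G+ F4/80- cells. Tumors were dissociated with enzymes, while marrow cells were spun out of the leg bones. Tissue, dissociation and oncogene therefore differed together between TANs and WT BM neutrophils and cannot be told apart. Because Cxcr2 was absent from all cells, its loss in the neutrophils and its loss elsewhere in the mouse cannot be told apart either.

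The counts on genes ranged from 25032704 to 51351569 per library, and 3 counts corresponded to between 0.0584 and 0.12 CPM. CPM here are counts scaled to the library total and the TMM factors of edgeR, and fold changes and adjusted p come from edgeR's quasi-likelihood test over all genes tested, with Benjamini-Hochberg adjustment. A gene was called at an adjusted p under 0.05 with a change of 1.5-fold or more. Cxcr2 itself had at most 10.0 CPM in PyMT-Cxcr2-/- TANs, against 1043 to 1523 CPM in PyMT TANs. The 8 neutrophil markers were detected in every group. Their summed level was between 7592 and 12152 CPM for PyMT TANs, 14218 and 24617 CPM for PyMT-Cxcr2-/- TANs, and 74484 and 99276 CPM for WT BM neutrophils. The 9 macrophage markers summed to between 1267 and 2591 CPM in TANs and to between 244 and 336 CPM in WT BM neutrophils, although F4/80+ cells had been left out by the gate. Of these markers, Csf1r alone had 184 to 264 CPM in WT BM neutrophils, while C1qa, C1qb, C1qc and Fcgr1 had at most 2.17 CPM. The 10 mammary epithelial markers summed to between 40.6 and 473 CPM in TANs, while 6 of them were at 0 in all WT BM libraries. In bulk samples such as these, fewer cells of a type and less RNA per cell cannot be told apart.

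Csf3r, the G-CSF receptor, was the most abundant of the 10 genes in every group. In CPM per kb of exon, it was at 1044 ± 209 (SD, n = 4) in PyMT TANs, where it ranked at place 20 among 19186 genes. It was at 1323 ± 182 (SD, n = 4) in PyMT-Cxcr2-/- TANs, at place 17, and at 1097 ± 68.2 (SD, n = 4) in WT BM neutrophils, at place 31. No other member came near this level, as the next in order was Socs3 in both kinds of TANs and Csf2ra in the marrow. In PyMT TANs, Socs3 came to 411 ± 89.7 CPM per kb (SD, n = 4). Csf1, Csf2rb, Csf2ra and Stat3 followed between 143 and 86.2 CPM per kb, and neighbours among these 4 overlapped. Csf2rb2 had 37.6 and Stat5a 9.48 CPM per kb, and Cish and Csf3, at 1.55 and 0.704 CPM per kb, overlapped at the bottom of the order. In PyMT-Cxcr2-/- TANs, Csf2ra and Csf2rb overlapped at 173 and 155 CPM per kb. Stat3 at 114, Csf1 at 79.4, Csf2rb2 at 39.5 and Stat5a at 12.1 CPM per kb then stood apart from each other. Csf3 at 2.23 CPM per kb was above Cish at 0.677 in this group, without overlap. This order depends on the lengths used, which are all annotated exons of a gene merged, 1413 bases for Csf3 and 6419 for Cish. In CPM, Cish averaged 4.35 and Csf3 3.16 in this group, with overlap. In WT BM neutrophils the order was different, with Csf2ra at 280.1 and Csf2rb at 84.4 CPM per kb. Stat3 at 55.1 and Socs3 at 48.8 overlapped, as did Csf2rb2 at 13.9 and Csf1 at 12.8 CPM per kb. Stat5a was at 7.23, Cish at 0.228 and Csf3 at 0.0209 CPM per kb.

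**Figure D1:**
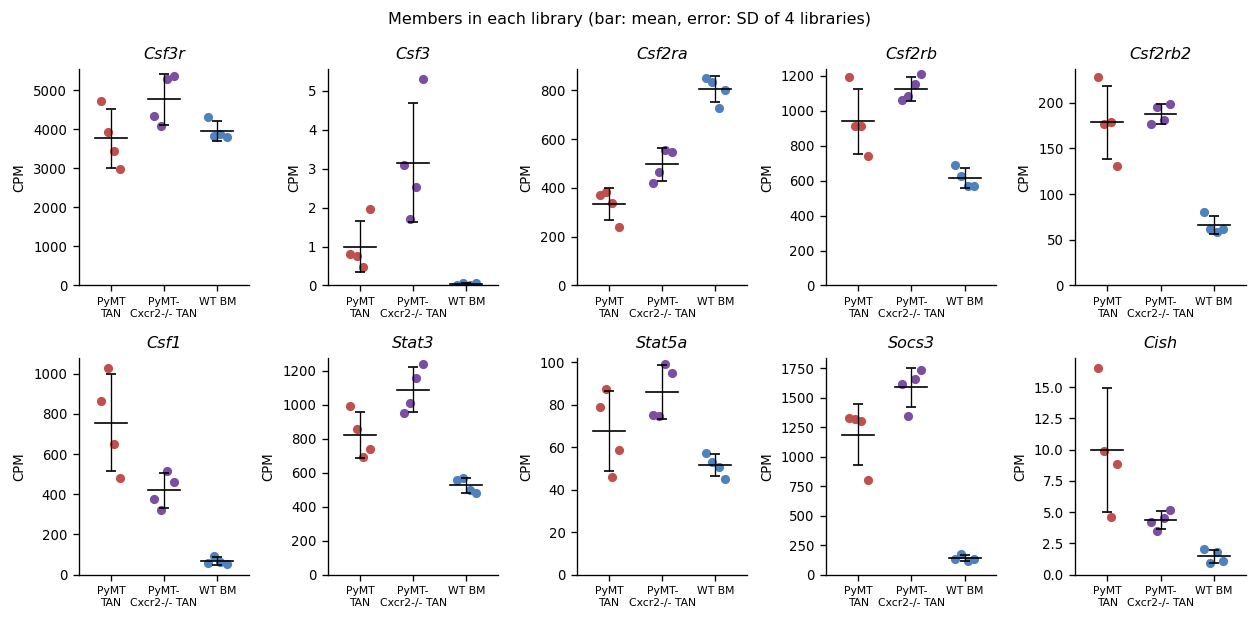
CPM (vertical axis, linear from 0) of the 10 members in each of the 12 libraries, by group (horizontal axis), with points for libraries 1 to 4 from left to right, the mean as a bar and the SD as an error bar. Csf3r lies between 2975 and 5374 CPM in all libraries, Socs3 and Csf1 are far lower in the 4 WT BM libraries than in the 8 TAN libraries, and Csf2ra is highest in WT BM.

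The Csf3r gene (ENSMUSG00000028859, chr4:126024550-126044440, plus strand, mm10) showed overlapping levels in the 3 groups. Its level was 4738, 3922, 3439.7 and 2975 CPM in PyMT TAN libraries 1 to 4. It was 4350.4, 4082, 5293 and 5374 CPM in PyMT-Cxcr2-/- TANs, and 4324, 3832, 3873 and 3801 CPM in WT BM neutrophils. The WT BM libraries lay close together, and the PyMT TAN libraries spread on both sides of them. Csf3r differed by a log2 fold change of -0.01 ± 0.15 (SE) between PyMT TANs and WT BM neutrophils (adjusted p = 0.98). The sign of this difference turned with upper-quartile scaling, to 0.085, and without PyMT TAN library 3 or 4, to 0.018 and 0.081. Against WT BM neutrophils, PyMT-Cxcr2-/- TANs showed a log2 fold change of 0.41 ± 0.13 (SE, adjusted p = 0.0159), which is 1.32-fold and under the fold required for a call. Between both kinds of TANs it was 0.34 ± 0.17 (SE, adjusted p = 0.405).

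Csf2ra, the ligand-binding alpha chain of the GM-CSF receptor, was the member with a lower level in TANs than in the marrow. The gene (ENSMUSG00000059326, chr19:61223957-61228429, minus strand) had 371, 385, 339 and 241 CPM in PyMT TAN libraries 1 to 4. It had 418, 465, 555 and 547 CPM in PyMT-Cxcr2-/- TANs and 849, 835, 729 and 802 CPM in WT BM neutrophils. No pair of groups overlapped, with PyMT TANs lowest and WT BM neutrophils highest. The summed level of the 7 markers of neutrophil precursor granules had the same order. It was 408 to 690 CPM in PyMT TANs, 1875 to 6250.5 CPM in PyMT-Cxcr2-/- TANs and 28597 to 45417 CPM in the marrow. Ltf, Ngp and Camp made up most of this sum in every group. Mpo and Prtn3 overlapped between TANs, with medians of 0.965 and 1.51 CPM in PyMT TANs against 0.543 and 1.27 CPM in PyMT-Cxcr2-/- TANs. Elane and Ctsg had at most 1.01 CPM in TANs. The part of these markers in the level of Csf2ra was not tested. Csf2ra fell by 1.20 on the log2 scale in PyMT TANs against WT BM neutrophils, with an SE of 0.15 (adjusted p = 4.61e-05), so that its level was 2.30-fold higher in the marrow. In PyMT-Cxcr2-/- TANs the log2 difference from the marrow was -0.56 ± 0.12 (SE, adjusted p = 0.000814), which is 1.47-fold and just under the fold required. It passed that fold when PyMT-Cxcr2-/- library 3 or 4 or WT BM library 3 was left out, at -0.59, -0.61 and -0.61, with all 12 libraries in one fit, at -0.70, and when the trend of each library with GC content and exon length was removed, called the GC and length adjustment here, at -0.83. In the direct comparison of TANs, Csf2ra was 0.57 ± 0.17 (SE) higher on the log2 scale in PyMT-Cxcr2-/- TANs and was not called (adjusted p = 0.12), although DESeq2 gave 0.62 with an adjusted p of 0.0454.

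The beta chains went the other way against the marrow. Csf2rb, the common beta chain (ENSMUSG00000071713, chr15:78325752-78353847, plus strand), had 1192, 912, 913 and 744 CPM in PyMT TANs. It had 1059.5, 1084, 1152 and 1208 CPM in PyMT-Cxcr2-/- TANs and 688, 627, 569.5 and 572 CPM in WT BM neutrophils. All TAN libraries were above all WT BM libraries, and the groups of TANs overlapped. Csf2rb rose in PyMT TANs, with a log2 fold change of 0.68 ± 0.15 (SE, adjusted p = 0.00215), and in PyMT-Cxcr2-/- TANs, with 1.01 ± 0.11 (SE, adjusted p = 2.79e-06). In PyMT TANs the call was lost without PyMT TAN library 1, at 0.54, and with the GC and length adjustment, at 0.38 (adjusted p = 0.0861). Csf2rb2, the beta chain of the IL-3 receptor, lies beside it (ENSMUSG00000071714, chr15:78282507-78305721, minus strand). It had 228, 177, 178 and 130.3 CPM in PyMT TANs, then 176, 195, 181 and 198 CPM in PyMT-Cxcr2-/- TANs, and 80.6, 62.1, 58.9 and 61.6 CPM in WT BM neutrophils. Again every TAN library was above every WT BM library. Csf2rb2 rose by 1.5 ± 0.17 (SE) on the log2 scale in PyMT TANs (adjusted p = 2.21e-05) and by 1.65 ± 0.11 (SE) in PyMT-Cxcr2-/- TANs (adjusted p = 4.72e-08). Between both kinds of TANs, the log2 difference was 0.26 ± 0.16 (SE) for Csf2rb and 0.07 ± 0.16 (SE) for Csf2rb2, neither of them called. The sign for Csf2rb2 turned to -0.05 without PyMT TAN library 4.

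The split between these paralogs is uncertain. The longest transcripts of Csf2rb and Csf2rb2, of 4900 and 4740 bases, were 91.0% identical over 4622 aligned bases. Their longest identical run was 242 bases, and 165 windows of 150 bases, the length of the reads, were the same in both genes. These are 3.47% of the windows of the Csf2rb transcript and 3.59% of those of Csf2rb2.

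The ratios of receptor genes within a library do not depend on how libraries are scaled. Per kb of exon, Csf2ra was between 0.790 and 1.07 times Csf2rb in PyMT TANs, from 1.0 to 1.22 times with Cxcr2 lost, and between 3.13 and 3.55 times in WT BM neutrophils. By these lengths, the alpha chain was near the level of the common beta chain in TANs and well above it in the marrow. The size of the ratio depends on the length used, which was 7277 bases of merged exons for Csf2rb, whose longest transcript has 4900. The contrast between groups does not depend on it, and the ratio in every TAN library was below that of every WT BM library. The ratio of Csf2rb to Csf2rb2 ran from 3.34 to 3.72 in PyMT TANs and from 3.62 to 4.15 in those without Cxcr2, and in WT BM neutrophils from 5.56 to 6.58. The ratio of Csf3r to Csf2rb was 7.59 to 8.67, 7.59 to 9.27 and 12.3 to 13.7 in the same order. For both ratios the groups of TANs overlapped and WT BM neutrophils stood above them. These ratios are given as descriptions and were not tested.

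**Figure D2:**
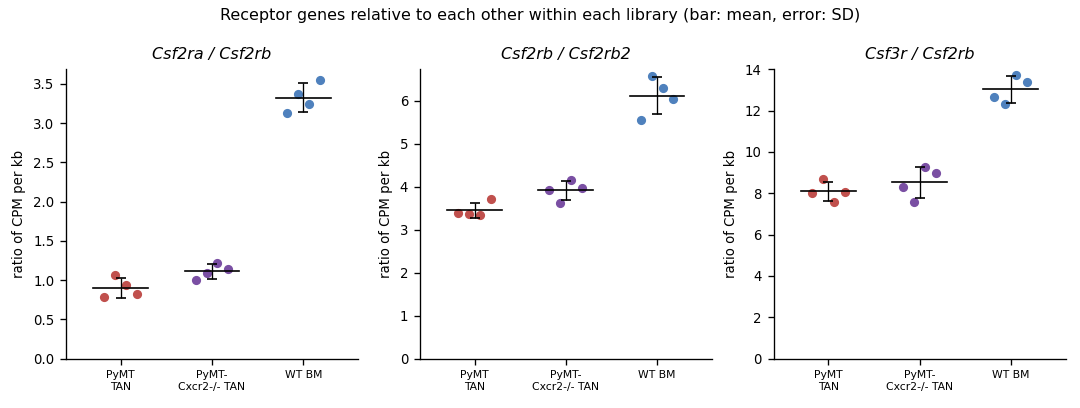
Ratios of CPM per kb of exon between receptor genes (vertical axes, linear from 0) in each of the 12 libraries by group (horizontal axis), with points for libraries, the mean as a bar and the SD as an error bar. In all 3 panels the 4 WT BM libraries lie above the 8 TAN libraries, and Csf2ra over Csf2rb is near 1 in TANs and between 3.13 and 3.55 in WT BM.

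Both ligand genes were higher in TANs than in the marrow and neither passed the test between TANs. Csf3 (ENSMUSG00000038067, chr11:98701263-98703629, plus strand) had 38, 28, 14 and 94 counts in PyMT TANs, which is 0.801, 0.748, 0.477 and 1.96 CPM. It had 164, 67, 122 and 258 counts in PyMT-Cxcr2-/- TANs, which is 3.09, 1.72, 2.52 and 5.30 CPM. In WT BM neutrophils it had 0, 2, 0 and 2 counts. Csf3 was thus a rare transcript in TANs, and all TAN libraries were above all WT BM libraries. The summed counts gave a level 36.5 times that of WT BM neutrophils in PyMT TANs, with an exact 95% interval of 9.80 to 306, and 110.0 times in PyMT-Cxcr2-/- TANs, with an interval of 30.2 to 914. Both intervals cover counting error only. They take counts in pairs in all libraries, because most of the low counts were even in 11 libraries, so that both mates of a pair may have been counted there. In PyMT TAN library 4, which held 94 of the 174 counts of its group, only 48.2% were even. Csf3 was called higher against the marrow in PyMT TANs (adjusted p = 0.00154) and in PyMT-Cxcr2-/- TANs (adjusted p = 6.98e-07). It passed the filter on low counts in these comparisons only through its counts in TANs. In the direct comparison, Csf3 was 1.65 ± 0.54 (SE) higher on the log2 scale in PyMT-Cxcr2-/- TANs, with overlap between the groups, and did not pass the test (adjusted p = 0.149). DESeq2 gave 1.73 with an adjusted p of 0.026. The mammary epithelial markers summed to 473 CPM in PyMT TAN library 4, where Csf3 was highest of its group, and to 109.5 CPM in PyMT-Cxcr2-/- library 4, where Csf3 was highest of all. The 6 fibroblast markers summed to between 0.801 and 13.7 CPM in PyMT TANs. Their sums were 23.3, 33.6, 35.1 and 1.77 CPM in PyMT-Cxcr2-/- libraries 1 to 4, lowest in library 4. The part of epithelial and fibroblast RNA in the level of Csf3 was not tested.

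Csf1, which encodes M-CSF (ENSMUSG00000014599, chr3:107741048-107760469, minus strand), was one of the most changed members against the marrow. It had 867, 1029.8, 651 and 481 CPM in PyMT TANs, then 377, 321, 517 and 463 CPM in PyMT-Cxcr2-/- TANs, and 58.3, 94.6, 63.3 and 53.2 CPM in WT BM neutrophils. Every TAN library was far above the marrow, and 3 of the 4 PyMT TAN libraries were above all PyMT-Cxcr2-/- libraries. Csf1 rose by 3.56 ± 0.27 (SE) on the log2 scale in PyMT TANs (adjusted p = 1e-06) and by 2.77 ± 0.20 (SE) in PyMT-Cxcr2-/- TANs (adjusted p = 7.78e-08), which is 11.8-fold and 6.83-fold. Between TANs, the log2 difference was -0.86 ± 0.23 (SE) in PyMT-Cxcr2-/- TANs and was not called (adjusted p = 0.0913). It was called without PyMT TAN library 4, at -1.02 (adjusted p = 0.0488), with DESeq2, at -0.80 (adjusted p = 0.045), and with all 12 libraries in one fit, at -0.85 (adjusted p = 0.0462). Csf1r, the receptor for M-CSF, also rose against the marrow, from 219 ± 33.3 CPM to 741 ± 146 CPM in PyMT TANs and, without Cxcr2, to 724 ± 76.1 CPM (SD, n = 4 each), with log2 fold changes of 1.82 and 1.86. Csf1r is among the 9 macrophage markers, and C1qa, another of them, was between 149 and 409 CPM in TANs against 0.600 to 2.04 CPM in WT BM neutrophils. The part of macrophage RNA in the levels of Csf1 and Csf1r was not tested. Csf2, which encodes GM-CSF, had at most 12 counts in any TAN library and 0 in all WT BM libraries.

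Stat3, the main STAT activated by G-CSF, rose in both kinds of TANs against the marrow. The gene (ENSMUSG00000004040, chr11:100885098-100939540, minus strand) had 992, 859, 692 and 739.7 CPM in PyMT TANs. It had 949.6, 1009.6, 1156 and 1237 CPM in PyMT-Cxcr2-/- TANs and 555, 571, 498 and 478 CPM in WT BM neutrophils. No TAN library reached down to the WT BM range. The log2 fold change was 0.71 ± 0.14 (SE, adjusted p = 0.000916) in PyMT TANs and 1.19 ± 0.12 (SE, adjusted p = 1.39e-06) in PyMT-Cxcr2-/- TANs. With the GC and length adjustment, the call in PyMT TANs was lost, at 0.39 (adjusted p = 0.103). Between TANs, Stat3 was 0.40 ± 0.15 (SE) higher on the log2 scale in PyMT-Cxcr2-/- TANs and was not called (adjusted p = 0.23). Stat5a, which lies next to it (ENSMUSG00000004043, chr11:100859351-100885169, plus strand), had 78.7, 87.2, 45.8 and 58.7 CPM in PyMT TANs. It had 75.3, 74.9, 99.2 and 94.7 CPM in PyMT-Cxcr2-/- TANs and 57.3, 53.1, 50.8 and 45.1 CPM in WT BM neutrophils. PyMT TANs overlapped both other groups, whereas PyMT-Cxcr2-/- TANs were all above the marrow. Stat5a rose in PyMT-Cxcr2-/- TANs, by 0.87 ± 0.12 (SE) on the log2 scale (adjusted p = 1.69e-05), and this fell under the fold required with the GC and length adjustment, at 0.44. In PyMT TANs its log2 difference from the marrow was 0.46 ± 0.19 (SE, adjusted p = 0.0545). Exons of Stat3 and Stat5a overlap by 72 bases on opposite strands, and reads there could count for neither or for the wrong gene, depending on the strand setting.

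The feedback inhibitor Socs3 had one of the clearest differences between TANs and the marrow. The gene (ENSMUSG00000053113, chr11:117966079-117970047, minus strand) had 1332, 1319.8, 1301 and 799.8 CPM in PyMT TANs. It had 1614, 1348, 1656 and 1733 CPM in PyMT-Cxcr2-/- TANs, but only 137, 178, 119.9 and 130.0 CPM in WT BM neutrophils. The 3 groups did not overlap, and 3 of the PyMT TAN libraries lay within a narrow range while library 4 was far below them. Socs3 rose by 3.14 ± 0.20 (SE) on the log2 scale in PyMT TANs (adjusted p = 3.28e-07) and by 3.63 ± 0.15 (SE) in PyMT-Cxcr2-/- TANs (adjusted p = 7.93e-10), which is 8.82-fold and 12.4-fold. Its rank per length went from place 1004 in the marrow to places 58 and 56 in PyMT and PyMT-Cxcr2-/- TANs. Between TANs, the log2 difference was 0.41 ± 0.18 (SE, adjusted p = 0.299).

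Cish was a low transcript that also rose in TANs. The gene (ENSMUSG00000032578, chr9:107296026-107302784, plus strand) had 16.5, 9.91, 4.60 and 8.82 CPM in PyMT TANs. It had 4.20, 3.49, 4.52 and 5.18 CPM in PyMT-Cxcr2-/- TANs and 2.04, 0.960, 1.78 and 1.07 CPM in WT BM neutrophils. All TAN libraries were above the marrow, and PyMT TAN library 3 overlapped the PyMT-Cxcr2-/- TANs. Cish rose by 2.83 ± 0.42 (SE) on the log2 scale in PyMT TANs (adjusted p = 0.000149) and by 1.71 ± 0.28 (SE) in PyMT-Cxcr2-/- TANs (adjusted p = 0.000107). Between TANs, the log2 difference was -1.20 ± 0.35 (SE, adjusted p = 0.106), the reverse of the sign for Socs3. Cish was called lower in PyMT-Cxcr2-/- TANs without PyMT TAN library 3, at -1.43 (adjusted p = 0.0357), and with DESeq2, at -1.15 (adjusted p = 0.0367). The 4 eosinophil markers summed to between 104 and 182 CPM for PyMT TANs, 50.3 and 68.1 CPM for PyMT-Cxcr2-/- TANs, and 19.0 and 22.9 CPM for the marrow, the same order as Cish and Csf1. Almost all of this sum was Siglecf. Ccr3 was at 5.41 to 8.09, 3.60 to 7.54 and 1.49 to 3.25 CPM in the same order. Epx and Prg2, which encode granule proteins of eosinophils, were at or below 0.13 CPM in all TAN libraries. In WT BM neutrophils they reached 0.480 and 1.32 CPM. The part of eosinophil RNA in the levels of Cish and Csf1 was not tested. Exons of Cish overlap 479 bases of Gm17041 and 261 bases of Gm17040 on the opposite strand, so a part of the Cish reads could belong to these.

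STAT3 and STAT5 bind palindromes of the form TTCNNNGAA, and the start regions of the members were searched for these letters, which read the same on both strands. A window of 300 bases, from 250 bases before the RefSeq start to 50 bases after it (GRCm38.p6, the patch release of mm10), was given for 8 of the 10 members, but not for Csf3 and Csf2rb. The letters were found in 3 of the 8, namely Socs3, Cish and Csf2rb2, and Cish held them 2 times. Of the windows of 27025 genes, 9.55% held the letters and 0.54% held them at least 2 times. Among 38 other genes of the pathway with a window, 1 (Sbno2) held them. The 3 windows that held the letters are shown. These genes were called higher in both kinds of TANs, but so were Csf1 and Stat3, whose windows did not hold the letters. Each runs 5′ to 3′ from 250 bases before the start to 30 bases after it, with the matching letters in capitals, at chr11:117969337-117969616 (minus strand), chr9:107296409-107296688 (plus strand) and chr15:78305692-78305971 (minus strand).
Socs3: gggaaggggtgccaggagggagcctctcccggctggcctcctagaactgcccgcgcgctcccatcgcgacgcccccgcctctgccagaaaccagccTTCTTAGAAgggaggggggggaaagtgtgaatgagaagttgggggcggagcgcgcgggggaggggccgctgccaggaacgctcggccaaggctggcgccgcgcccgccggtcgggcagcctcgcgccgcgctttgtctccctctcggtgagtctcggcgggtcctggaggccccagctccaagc
Cish: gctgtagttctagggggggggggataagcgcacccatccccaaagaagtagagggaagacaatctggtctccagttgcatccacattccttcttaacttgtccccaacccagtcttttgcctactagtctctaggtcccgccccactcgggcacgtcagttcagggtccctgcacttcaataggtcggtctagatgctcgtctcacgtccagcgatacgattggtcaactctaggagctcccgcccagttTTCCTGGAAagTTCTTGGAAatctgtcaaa
Csf2rb2: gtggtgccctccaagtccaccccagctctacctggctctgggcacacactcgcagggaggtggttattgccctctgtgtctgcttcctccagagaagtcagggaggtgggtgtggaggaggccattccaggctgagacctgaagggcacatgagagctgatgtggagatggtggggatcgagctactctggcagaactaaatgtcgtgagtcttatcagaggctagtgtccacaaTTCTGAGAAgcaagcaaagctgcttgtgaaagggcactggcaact
In Socs3 the match runs from base -154 to -146 relative to the start. In Csf2rb2 it runs from -15 to -7. In Cish the matches cover bases 1 to 9 and 12 to 20 of the transcript, directly behind one another. A match of letters is a description of the sequence and does not show that a factor binds there.

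Of the 10 members, 7 were called higher and 1 lower in PyMT TANs against WT BM neutrophils. In this comparison 53.3% of the 17153 genes tested were called, 30.1% higher and 23.2% lower. The median log2 fold change of the members was 1.11, against 0.09 over all genes tested, and 8 members showed no overlap between the groups, as did 58.3% of all genes tested. In PyMT-Cxcr2-/- TANs against WT BM neutrophils, 8 members were called higher and 0 lower, where 59.5% of the 17732 genes tested were called, 34.4% higher and 25.1% lower. The count of 0 lower rests on edgeR with the fold required, where DESeq2 also called 0 lower, against 15.1% of the genes that it fitted, and 1 member, Csf2ra, was lower in edgeR at an unadjusted p of 0.000362. The median of the members was 1.42, against 0.09 over all genes tested, and 9 members showed no overlap, as did 65.9% of all genes tested. Both comparisons share the WT BM libraries. In both, the members called higher include Csf3, which passed the filter on low counts only through TANs.

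In the direct comparison of PyMT-Cxcr2-/- with PyMT TANs, none of the 10 members was called by edgeR, where 1.98% of the 18463 genes tested were called, 1.38% higher and 0.596% lower. At an unadjusted p under 0.05 there were 6 members, with Csf3, Csf2ra, Stat3 and Socs3 higher and Csf1 and Cish lower in PyMT-Cxcr2-/- TANs. The share was 15.2% over all genes tested. DESeq2 called 4, with Csf3 and Csf2ra higher and Csf1 and Cish lower, where it called 3.25% of the 31846 genes that it fitted without a filter on low counts, 2.03% higher and 1.22% lower. The median log2 difference of the members was 0.34, against -0.07 over all genes tested. Csf2ra and Socs3 were the 2 members without overlap between TANs, which also applied to 12% of all genes tested.

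**Figure D3:**
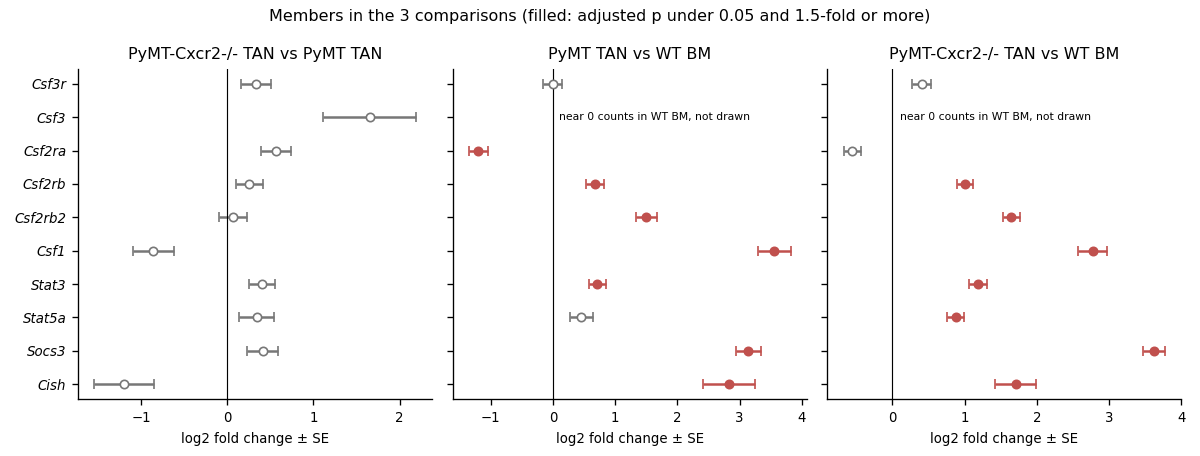
Log2 fold change with its SE (horizontal axes, different ranges) of each member in the 3 comparisons, with filled points for genes called at an adjusted p under 0.05 and 1.5-fold or more. No point is filled between the TANs, whereas against WT BM Csf1 and Socs3 lie farthest to the right and Csf2ra lies to the left of 0, and Csf3 is not drawn there because its counts in WT BM were near 0.

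Within a group, the members tended to be high or low in the same libraries. In PyMT TANs, library 1 had the highest value for 6 of the 10 members and library 4 the lowest for 6. In PyMT-Cxcr2-/- TANs, library 4 was highest for 7 members and library 2 lowest for 6. The sum of the neutrophil markers was also highest in library 1 and lowest in library 4 of PyMT TANs, with 12152, 7770, 9819 and 7592 CPM in libraries 1 to 4. Library 2, close to library 4 in this sum, was highest for 3 members and lowest for 0. Library 3, with a higher sum than library 2, was lowest for 4 members and highest for 0. With Cxcr2 lost, the sum of the neutrophil markers was highest in library 4 and lowest in library 2, at 24617 and 14218 CPM. The mammary epithelial markers were lowest in library 1 and highest in library 4 of PyMT TANs, and lowest in library 3 and highest in library 2 of PyMT-Cxcr2-/- TANs, at 71.1 and 318 CPM. The part of either list in the spread of the members was not tested.

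The genes most like 4 of the members in their pattern over the 12 libraries were found by Pearson's r of log2 CPM. The libraries fall into 3 groups, so that these values mainly describe differences between groups. For Csf3r they were Cmip (r = 0.97), Med13l (r = 0.95) and Ttc7 (r = 0.95). For Csf2rb they were Emilin2 (r = 0.99), Cebpb (r = 0.98) and Sipa1l3 (r = 0.98). For Socs3 they were Junb (r = 0.997), Pim1 (r = 0.995) and Relb (r = 0.993). For Cish they were Wsb2 (r = 0.99), Gna13 (r = 0.97) and Gm36660 (r = 0.97).

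The other genes of the pathway were taken as a list of 54 genes in 6 roles. Against WT BM neutrophils, 34 of the 46 tested were called in PyMT TANs, 27 higher and 7 lower, and 33 of the 47 tested were called in PyMT-Cxcr2-/- TANs, 28 higher and 5 lower. The median log2 fold changes were 1.02 and 1.09. Over all genes tested, 53.3% and 59.5% were called in these comparisons. Between TANs, 3 of the 49 tested were called, 2 higher and 1 lower in PyMT-Cxcr2-/- TANs, against 1.98% of all genes tested.

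Among the STAT3 and STAT5 targets, 12 were called higher and 1 lower in PyMT TANs, of 13 tested. In PyMT-Cxcr2-/- TANs, 12 were called higher and 1 lower, of 14 tested. The shares over all genes tested were 30.1% and 34.4% higher, and 23.2% and 25.1% lower. Pim1, a survival kinase, went from 286 ± 37.6 CPM in WT BM neutrophils to 1659 ± 259.9 CPM in PyMT TANs and, without Cxcr2, to 1942 ± 344 CPM (SD, n = 4 each). Junb, a subunit of the AP-1 transcription factor, rose by 2.17 and 2.52 on the log2 scale, and Bcl2l1, which encodes the anti-apoptotic protein BCL-XL, by 2.30 and 2.15. Mcl1, another survival gene of neutrophils, rose by 1.01 and 1.37. Cebpd, a transcription factor of the C/EBP family, was the target that fell, by 1.72 and 1.36 on the log2 scale. Its relative Cebpb, which is linked to emergency granulopoiesis, rose by 1.67 and 2.49.

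Of 8 receptor genes tested, 5 were called higher in each comparison, namely Csf1r, Il6st, Il10ra, Lifr and Osmr, against 30.1% and 34.4% of all genes tested. Il6st, the chain shared by the IL-6 family, had 2.81 ± 1.04 CPM in WT BM neutrophils, 28.7 ± 6.06 CPM in PyMT TANs and, without Cxcr2, 33.5 ± 7.43 CPM (SD, n = 4 each). Il10ra, the IL-10 receptor chain, rose by 3.26 and 3.44 on the log2 scale, and Lifr, the LIF receptor, by 3.58 and 3.78. The specific IL-6 receptor chain Il6ra was at 293 ± 50.9, 313 ± 73.1 and 369 ± 62.1 CPM (SD, n = 4 each) in the same order and was called in neither comparison. Il10rb, the other chain of the IL-10 receptor, was not called either, at 0.35 and 0.52, and Il3ra was called lower in PyMT TANs, at -1.03. The macrophage markers, with sums of 2034, 2065, 1631 and 1267 CPM in PyMT-Cxcr2-/- libraries 1 to 4, were lowest in library 4 as was Lifr, at 49.95, 51.0, 44.2 and 25.3 CPM. Osmr, the oncostatin M receptor, had 1.69, 2.72, 25.2 and 20.8 CPM in PyMT TANs, where the mammary epithelial markers summed to 40.6, 50.8, 293 and 473 CPM. Both Osmr and these markers were far higher in libraries 3 and 4. The part of macrophage and epithelial RNA in the receptor levels was not tested. The ligand gene Lif rose by 4.34 and 5.03. Il10 averaged 30.7 and 28.8 CPM in these TANs, in the same order, while only 1 WT BM library had counts, 11 in number.

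Of the 4 other STAT genes tested, none was called higher, while 2 fell in PyMT TANs and 1 in PyMT-Cxcr2-/- TANs, no more than the 53.3% and 59.5% called over all genes tested. Stat4, a STAT of IL-12 signaling, fell by 1.37 and 1.77 on the log2 scale. Stat5b, the near twin of Stat5a, fell by 0.84 in PyMT TANs and differed by -0.30 in PyMT-Cxcr2-/- TANs (adjusted p = 0.0506). Among the JAK kinases, Jak2 and Jak3 rose in both kinds of TANs, Jak2 by 1.26 and 0.62 and Jak3 by 3.07 and 2.57. Jak2 is bound by the receptors for G-CSF and GM-CSF. Jak1 and Tyk2 were not called. Stat4, Jak3 and Il10rb share exon sequence on the same strand with Gm28177, Insl3 and Gm21970, over 26.7%, 7.5% and 14.9% of their length. Their counts are uncertain for that reason. Csf1r, Pim1, Cebpb and Cebpd overlap exons of genes on the opposite strand over 14.5% to 20.7% of their length, with the same limit.

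Of 14 inhibitor genes tested, 6 were called higher and 3 lower in each comparison, which is near the shares over all genes tested (30.1% and 34.4% higher, 23.2% and 25.1% lower). Pias3, known as an inhibitor of STAT3, fell by 2.02 and 1.54 on the log2 scale, and the phosphatase gene Ptpn6, which encodes SHP-1, fell by 1.01 and 0.92. Pias4 fell by 0.74 and 0.76. Pias2 rose by 1.60 and 1.32, and Socs5, Socs6 and Socs7 rose by 0.94 to 1.96 in PyMT TANs and by 1.09 to 1.64 without Cxcr2. Socs2, a target and inhibitor of STAT5, was called higher, with averages of 2.26 and 2.12 CPM against 8 counts in all WT BM libraries together. Like Csf3, Socs2, Il10 and Osmr passed the filter on low counts against the marrow only through their counts in TANs. Socs1, the closest relative of Socs3 in mode of action, was at 11.3 ± 2.05, 13.8 ± 3.72 and 10.2 ± 2.95 CPM (SD, n = 4 each) in WT BM neutrophils, PyMT TANs and PyMT-Cxcr2-/- TANs, and was not called.

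**Figure D4:**
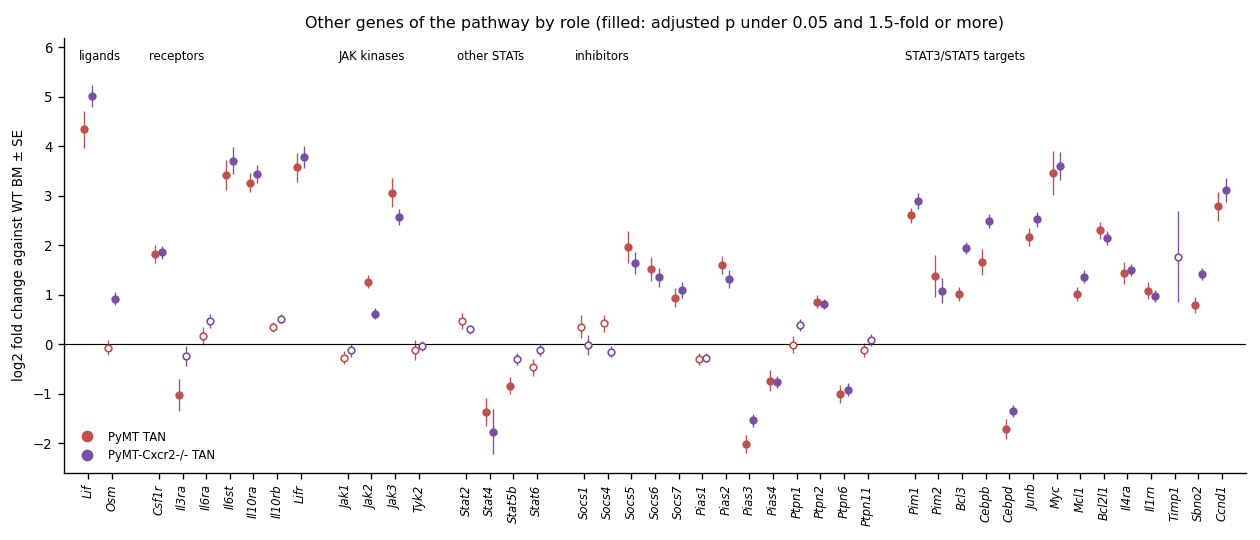
Log2 fold change against WT BM with its SE (vertical axis) of the other pathway genes (horizontal axis, grouped by role) in PyMT TANs and in PyMT-Cxcr2-/- TANs, with filled points for genes called at an adjusted p under 0.05 and 1.5-fold or more. Of the STAT3 and STAT5 targets 12 lie filled above 0 in each group and Cebpd below. Of all genes tested, 30.1% and 34.4% were called higher and 23.2% and 25.1% lower. Il10, Osmr and Socs2 are not drawn because they had 11, 2 and 8 counts in the 4 WT BM libraries together.

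Between TANs, the pathway genes called were Osm, Bcl3 and Jak2. Osm encodes oncostatin M, a cytokine of the IL-6 family that neutrophils make and that signals through STAT3. It had 372, 498, 476 and 364 CPM in PyMT TANs, then 746, 749.6, 838 and 903 CPM in PyMT-Cxcr2-/- TANs, and 378, 562, 467 and 471 CPM in WT BM neutrophils. PyMT TANs overlapped the marrow, and PyMT-Cxcr2-/- TANs were above both. Osm rose by 0.92 ± 0.15 (SE) on the log2 scale in PyMT-Cxcr2-/- against PyMT TANs (adjusted p = 0.0154). Bcl3, a STAT3 target that regulates NF-kB, had 152, 143, 130.2 and 107 CPM in PyMT TANs, then 209, 222, 259 and 276 CPM in PyMT-Cxcr2-/- TANs, and 57.5 to 78.0 CPM in WT BM neutrophils. The 3 groups did not overlap, and Bcl3 rose by 0.86 ± 0.15 (SE) between TANs (adjusted p = 0.019). Jak2 had 469, 328, 411 and 434 CPM in PyMT TANs. In PyMT-Cxcr2-/- TANs it had 235, 213, 275 and 277 CPM, without overlap, and fell by 0.72 on the log2 scale, with an SE of 0.15 (adjusted p = 0.0361).

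These 3 calls did not hold in every fit. The call of Jak2 was lost when any of the 8 libraries was left out, with adjusted p between 0.0617 and 0.107. It was also lost with RLE scaling (adjusted p = 0.0669), upper-quartile scaling (adjusted p = 0.0588) and the GC and length adjustment (adjusted p = 0.125), at log2 differences of -0.66, -0.70 and -0.63. The call of Osm was lost without PyMT TAN library 2 (adjusted p = 0.0502) or PyMT-Cxcr2-/- library 3 (adjusted p = 0.0543). The call of Bcl3 was lost without PyMT TAN library 2 (adjusted p = 0.0709), PyMT-Cxcr2-/- library 3 (adjusted p = 0.0766) or PyMT-Cxcr2-/- library 4 (adjusted p = 0.0684). Over all genes tested, calls fell in these fits as well, from 255 higher and 110 lower with all 8 libraries. They numbered 10 and 13 without PyMT TAN library 2, and 58 and 25 without PyMT-Cxcr2-/- library 3. Without PyMT-Cxcr2-/- library 4 there were 68 and 28. Without PyMT TAN library 1, where only the call of Jak2 was lost, 427 were called higher and 86 lower. The log2 differences stayed between 0.85 and 1.0 for Osm, between 0.77 and 0.97 for Bcl3 and between -0.81 and -0.60 for Jak2 when single libraries were left out. In all, 7 pathway genes were without overlap between TANs, which applied to 12% of all genes tested. Besides the 3 called, these were Sbno2, Cebpb and Lif, higher in PyMT-Cxcr2-/- TANs (adjusted p = 0.133, 0.17 and 0.304), and Socs4, lower there (adjusted p = 0.106), none of which passed the test.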

How the data were processed

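Neutrophils from 3 groups of 4 mice were used. The authors made directional libraries after removal of ribosomal RNA and sequenced both ends of fragments at 150 bases. They aligned the trimmed reads with STAR (build mm10), and HTSeq gave the reads per gene. The deposited values are raw counts per gene. The strand setting and annotation release of the counting are not given in the sources used here. HTSeq's unassigned classes were left out (32.0% to 52.5% of reads were on no feature, 1.92% to 2.92% ambiguous). Of counts between 1 and 20, between 48.2% (PyMT TAN library 4) and 74.2% (PyMT TAN library 2) were even. Identifiers were matched without their version to GENCODE M21 (55154 of 55335), and promoter sequences are from RefSeq (GRCm38.p6).

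Each comparison was fitted on its 2 groups with edgeR 4.0.16 in R 4.3.3 (TMM, filterByExpr, robust quasi-likelihood F-test). Replicates of one group differed beyond sampling noise (chi-square per degree of freedom between 22.6 and 134). The labels call them separate samples, and p-values measure the spread between these. A prior count of 2 was used for log2 CPM in the search for like genes. Tests were checked on simulated counts with known changes.

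The 10 members, the 54 pathway genes, the markers and all designs were chosen with earlier results of these data known. The genes named are the members, pathway genes that were called, 11 pathway genes named whatever their result (Csf1r, Csf2, Il6ra, Il6st, Jak2, Stat5b, Socs1, Socs2, Pim1, Bcl3 and Osm), and for Csf3r, Csf2rb, Socs3 and Cish the 3 genes of highest r. Jak1, Tyk2 and Il10rb, in the comparison of TANs Cebpb, Sbno2, Lif and Socs4, and the overlap of groups were picked after their values were seen. A further gene of the list is not reported here. Alternatives were RLE and upper-quartile scaling, no filter beyond 1 read, DESeq2 1.42.0, 12 libraries in one fit, the replicate block, adjustment for GC content and gene length, each library left out, and, chosen after seeing the data, counts halved.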

Additional observations from a re-analysis of the deposited data

Results flagged for a closer look

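Of 30 pairs of a member and a group, 3 held a library whose gap to the nearest other was more than Dixon's 95% limit for 4 samples of the group's range, where chance gives about 1 in 20. Csf3r had 4324 CPM in WT BM library 1, with the other libraries between 3801 and 3873 CPM (ratio 0.862). Csf2rb2 had 80.6 CPM in WT BM library 1, with the others between 58.9 and 62.1 CPM (ratio 0.856). Socs3 had 799.8 CPM in PyMT TAN library 4, with the others between 1301 and 1332 CPM (ratio 0.940). The same PyMT TAN library had the highest sum of mammary epithelial markers of its group, at 473 CPM, and the lowest sum of neutrophil markers, at 7592 CPM. PyMT TAN library 2 had nearly as low a sum of neutrophil markers, at 7770 CPM, with Socs3 at 1320 CPM. The part of either list in the low Socs3 level was not tested.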

How the results depend on the processing

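Against WT BM neutrophils, the counts of members called stayed within 1.5 times under every alternative, and leaving out single libraries gave 7 to 8 in PyMT TANs and 8 to 9 in PyMT-Cxcr2-/- TANs. For the pathway genes this gave 33 to 34 and 32 to 35. Between TANs, the count of 0 members became 4 with DESeq2, 1 with 12 libraries in one fit and 0 to 1 when single libraries were left out, with Cish called without PyMT TAN library 3 and Csf1 without library 4. The count of 3 pathway genes between TANs became 0 to 2 when single libraries were left out. Over all genes tested, 255 were called higher and 110 lower between TANs in the main fit. Leaving out single libraries gave 10 to 427 higher and 13 to 100 lower. With 12 libraries in one fit these counts were 579 and 307, and with DESeq2 646 and 389. The sign of Csf3r in PyMT TANs against WT BM neutrophils turned from -0.01 to 0.085 with upper-quartile scaling and to 0.023 with counts halved, and ranged from -0.14 to 0.081 when single libraries were left out. That of Csf2rb2 between TANs ranged from -0.054 (without PyMT TAN library 4) to 0.25. The cause was not tested. Of the other fits of single members under these alternatives, 485 kept their direction and their side of the threshold, 13 gained and 7 lost a call.

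The replicate numbers did not pair the libraries, since the correlations of same-numbered deviations averaged -0.13 between TANs, -0.04 between PyMT TANs and WT BM neutrophils and 0.05 between WT BM neutrophils and PyMT-Cxcr2-/- TANs. With the replicate number as a block, 0 pathway genes were called between TANs, and also 0 with the block and the GC and length adjustment together. Few genes were called at all in these fits. Of the 18463 genes tested, 4 were called higher and 9 lower with the block, and 3 and 5 with both. No member changed its call with the block alone. With both, Csf2rb and Stat3 in PyMT TANs were no longer called, at 0.34 and 0.35, nor was Stat5a in PyMT-Cxcr2-/- TANs, at 0.43, while Csf2ra there was called, at -0.85, as with the adjustment alone. Members of fewer than 3 counts in a library, here Csf3 in WT BM neutrophils, were not detectable at this depth.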
